A study of Mus musculus with 4 samples.

Results

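The colony-stimulating factors are secreted growth factors that drive the output of granulocytes and macrophages, and here they were described with their receptor chains in G-MDSC, the granulocytic kind of myeloid-derived suppressor cell that gathers in tumour-bearing mice, and in neutrophils. The members are 8 mouse genes, 3 factors (Csf1, Csf2 and Csf3) and 5 receptor chains (Csf1r, Csf2ra, Csf2rb, Csf2rb2 and Csf3r). They were found as the 15 probe sets annotated with 1 of these symbols and no other, of 45101 on the array. A probe set is a group of short oligonucleotides on an Affymetrix Mouse 430 2.0 array that reads 1 transcript region, and its value is a signal intensity in arbitrary units.

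The 4 arrays held 2 samples of G-MDSC and 2 of neutrophils, and every mouse was a C57BL/6 female. G-MDSC (CD11b+Ly6G+Ly6Clow) came from the spleens of mice that carried a subcutaneous EL4 lymphoma for 3.5 weeks, and were taken on Ly6G microbeads. Neutrophils were lavaged from the peritoneal cavity of mice that had 2 doses of 1.5 ml of 12% casein, a milk protein that provokes inflammation, 16 h apart, the later one 3 h before collection. They were cleared of F4/80-bearing cells and selected on Ly6G, and red cells were lysed in both preparations. Selection on Ly6G was common to both groups, but tumour, casein, tissue and the F4/80 step each lay wholly in 1 group, so their shares in any difference cannot be told apart from that of the cell kind. Whether both samples of a group are from different animals is not stated, so each p-value rests on a spread between samples that may be technical.

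Each factor acts through its own receptor. Csf1 (M-CSF) binds the tyrosine kinase Csf1r and sustains monocytes and macrophages. Csf2 (GM-CSF) binds the chain Csf2ra, which signals through the common beta chain Csf2rb, shared with the IL-3 and IL-5 receptors. Mice also carry Csf2rb2, a beta chain for IL-3 alone. Csf3 (G-CSF) binds Csf3r and is the main factor for the formation and release of neutrophils. Resting neutrophils are known for high levels of Csf3r, and the factors themselves are made by stimulated macrophages, stromal, endothelial and lymphoid cells. All the receptors except Csf1r signal through JAK kinases and STAT3 or STAT5.

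The receptor genes whose RefSeq (GRCm38.p6) promoters were searched are shown by their 250 bases before the start. They are Csf3r, Csf2ra and Csf2rb2, and each holds the core bound by PU.1, a factor of myeloid genes. The promoters of Csf1r and Csf2rb were not searched. Capitals mark every match to the motifs searched on both strands, and the sequences run 5′ to 3′ in the direction of the gene. They lie at chr4:126024409-126024658 (plus strand) for Csf3r, chr19:61228419-61228668 (minus strand) for Csf2ra and chr15:78305722-78305971 (minus strand) for Csf2rb2.
Csf3r: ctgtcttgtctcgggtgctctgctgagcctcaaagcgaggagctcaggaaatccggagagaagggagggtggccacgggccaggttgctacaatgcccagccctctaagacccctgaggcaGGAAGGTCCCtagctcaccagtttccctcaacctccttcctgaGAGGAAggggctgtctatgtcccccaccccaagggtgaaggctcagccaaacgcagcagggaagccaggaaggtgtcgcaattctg
Csf2ra: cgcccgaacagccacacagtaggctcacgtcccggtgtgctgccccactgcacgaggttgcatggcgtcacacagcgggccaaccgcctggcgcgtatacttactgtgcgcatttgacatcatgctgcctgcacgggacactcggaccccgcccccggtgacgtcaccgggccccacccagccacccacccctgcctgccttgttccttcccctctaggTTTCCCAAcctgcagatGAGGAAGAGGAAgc
Csf2rb2: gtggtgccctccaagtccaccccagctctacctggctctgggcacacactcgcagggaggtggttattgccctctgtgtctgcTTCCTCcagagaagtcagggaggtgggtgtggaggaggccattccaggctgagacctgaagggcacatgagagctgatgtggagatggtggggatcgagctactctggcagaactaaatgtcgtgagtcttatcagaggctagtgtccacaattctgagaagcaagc
These 3 promoters, the only receptor promoters searched, all hold the PU.1 core (GAGGAA). With those of Csf1r and Csf2rb not searched, no share of the receptor chains is given. Csf2ra has 2 adjoining copies, at 14 to 9 and 8 to 3 bases before the start. Of 32851 promoters of the same length, 23.3% hold the core. Its part in the signals of the receptor chains was not tested. The other capitals in Csf3r are an NF-kappaB consensus (7.25% of promoters), and those in Csf2ra a C/EBP motif (TTNNGNAA, 36.8% of promoters). A match describes the letters only. Among the promoters of the factors, that of Csf1 held 1 NF-kappaB consensus and that of Csf2 held 1 C/EBP motif. The CK-1 element, AP-1 (TGANTCA) and the TATA box (TATAAA) had no match in the 5 member promoters searched (Csf1, Csf2, Csf2ra, Csf2rb2 and Csf3r). Of all promoters, 0.0365%, 6.75% and 12.4% hold them. No promoter was available for Csf3, so it was not searched. A lack of a match holds only for the 250 bases searched, before 1 listed start per gene. Elements near any other start, a CK-1 element or TATA box of Csf2 among them, would be missed.

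One member changed. Csf3 was far lower in G-MDSC, where it lay below the 40th percentile of both arrays, while the other factor that could be tested, Csf1, and all 5 receptor chains showed differences of less than 2-fold, with none past the threshold. Of 7 member genes tested at their brightest probe set, 1 was lower and 0 were higher in G-MDSC by limma (Benjamini-Hochberg adjusted p under 0.05), beside 5.62% of all 13139 genes called lower and 5.22% called higher. At an unadjusted p under 0.05 the counts of members were also 1 and 0. The median difference of the 7 genes was -0.30 and that of all genes -0.19, both as log2 values of G-MDSC minus neutrophils. The arrays of the groups did not overlap for 4 of the 7, beside 59.7% of all genes, so this share says nothing particular about the members.

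**Figure D1:**
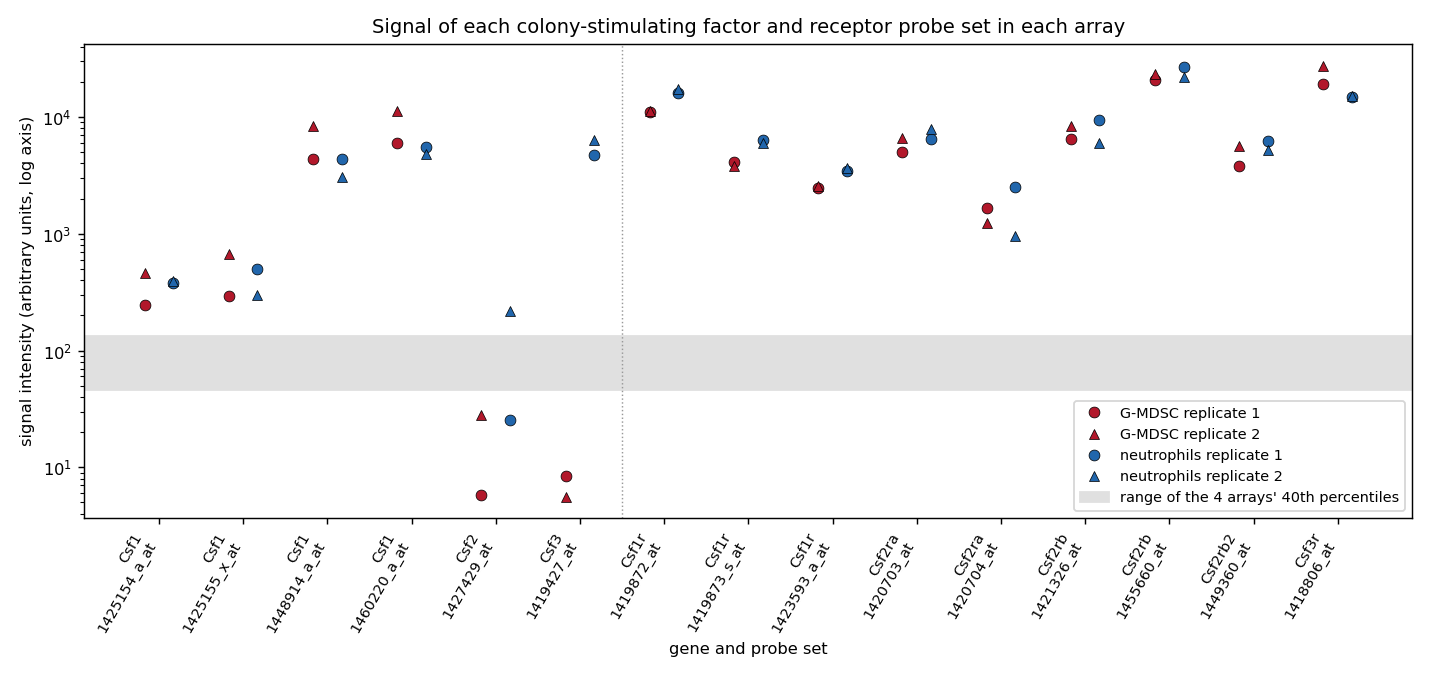
Signal intensity (log axis, arbitrary units) of the 15 probe sets of the 3 factors, left of the dotted line, and the 5 receptor chains, right of it. Red marks are the 2 G-MDSC arrays and blue marks the 2 neutrophil arrays, circles for replicate 1 and triangles for replicate 2, and the grey band spans the 4 arrays' 40th percentiles, 45.7 to 132.7. Csf3 lies under the band in G-MDSC and at 4716 and 6308 in neutrophils, and every receptor probe set lies at 956 or higher in all arrays.

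Csf3, the granulocyte factor, had signals of 8.43 and 5.58 in G-MDSC, compared with 4716 and 6308 in neutrophils (means 7.01 ± 2.01 and 5512 ± 1125, SD, n = 2 each). Both G-MDSC arrays lay under their 40th percentiles of 45.7 and 52.6, and the groups were far apart. The log2 difference, -7.90 ± 0.39, passed the test (SE, n = 2 per group; limma adjusted p = 0.000137), and because the G-MDSC signal was that dim only a bound is given for the fold, at least 84.1-fold lower. With the highest percentile of the 4 arrays as a common floor the bound was 36.8-fold. It lay between 72.7-fold and 97.2-fold with 1 array left out. The call was lost where low signals were raised to a floor (log2 difference -5.36, adjusted p = 0.129, unadjusted p = 0.000157) and without moderation across probe sets (adjusted p = 0.239), and under both limma called 0 of 28754 probe sets, with 5374 and 4212 at an unadjusted p under 0.05.

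Markers of other leukocytes, chosen after their values were seen, differed between the same arrays. Beside the counts below, 5.62% of all 13139 genes were called lower in G-MDSC and 5.22% higher. Of 15 macrophage markers tested, 11 were lower and 0 higher in G-MDSC, with 4 not past the threshold, and the signals of the 16 on the list summed to 28748 and 38148 in the G-MDSC arrays, against 72466 and 114354 in the neutrophil arrays. Cd14, which did not pass, made up most of each sum, and the other 15 summed to 6339 and 6181 in G-MDSC, compared with 30194 and 50767 in neutrophils. Adgre1, the F4/80 antigen that the neutrophils had been cleared of, had 817 and 643 in G-MDSC, compared with 4847 and 7136 in neutrophils (log2 difference -2.99 ± 0.33, limma adjusted p = 0.00174), a call lost with each array scaled to the same median (-2.36, adjusted p = 0.128) and without the intensity trend (0.0531). Of 12 monocyte and dendritic cell markers 7 were lower and 0 higher, with sums of 17256 and 19222 in the G-MDSC arrays, against 53239 and 66604 in the neutrophil arrays, or 7676 and 9324 in the G-MDSC arrays and 31735 and 37297 in the neutrophil arrays without Cd74, the brightest. Mast cell and basophil markers had 5 lower and 1 higher of 9 tested, with sums of 18048 and 19463 in G-MDSC, compared with 39704 and 30547 in neutrophils. Most of this was Hdc, which did not pass, and the other 9 with a probe set summed to 2792 and 1411 in the G-MDSC arrays, against 15354 and 6531 in the neutrophil arrays. With median scaling the markers called lower numbered 5 macrophage, 2 monocyte and dendritic cell and 3 mast cell and basophil genes, and without the intensity trend 3, 1 and 3. Without G-MDSC replicate 1 the monocyte and dendritic cell genes called lower numbered 4, and Mcpt8, the 1 mast cell and basophil gene called higher, did not pass. The part of these cells in the Csf3 difference was not tested, and in bulk samples fewer cells of a type and less RNA per cell cannot be told apart.

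Markers of stromal, lymphoid and eosinophil cells held no call. Of 6 mesothelial, stromal and endothelial markers tested, 0 were called by limma and 2 were lower in G-MDSC at an unadjusted p under 0.05, and the 13 with a probe set summed to 770 and 659 in the G-MDSC arrays, against 786 and 1915 in the neutrophil arrays. Msln, Upk3b, Krt19 and Lum lay under the 40th percentile in all 4 arrays. T and NK cell markers had 0 of 10 called, with 1 lower at an unadjusted p under 0.05, and summed to 1153 and 636 in G-MDSC, compared with 1732 and 1596 in neutrophils. B cell markers had 0 of 7 called, with 0 at an unadjusted p under 0.05, and summed to 8899 and 9265 in the G-MDSC arrays, against 8170 and 10314 in the neutrophil arrays. Eosinophil markers had 0 of 2 called, with 2 higher at an unadjusted p under 0.05, and summed to 796 and 1549 in G-MDSC, compared with 317 and 677 in neutrophils. Neutrophil markers were bright in both preparations: their sums were 318222 and 366303 in the G-MDSC arrays and 217177 and 258154 in the neutrophil arrays, and S100a8 had 53178 and 61944 in the G-MDSC arrays, against 58668 and 85891 in the neutrophil arrays. Of 11 neutrophil markers 4 were higher in G-MDSC (Camp, Ltf, Ngp and Cd177) and 0 lower. The other 7 did not pass, among them Lcn2 (log2 difference -0.12), Mmp8 (0.77) and Mmp9 (1.42). Without the intensity trend only Camp was still called, and with the floor for low signals or without moderation 0 were.

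Csf2, the granulocyte and macrophage factor, was dim. Its single probe set had 5.76 and 28.3 in G-MDSC, compared with 25.4 and 216 in neutrophils. Of the 4 arrays, only neutrophils replicate 2 lay above its own 40th percentile, and the groups overlapped, so the probe set missed the filter and entered no test. In a fit without the filter its log2 difference was -1.66 ± 0.99 (limma adjusted p = 0.489), and no fold is given. That array differed from the others among dim probe sets, since its 40th percentile was 132.7 and those of the other 3 arrays ran from 45.7 to 52.6. Over all kept probe sets, the log2 signals of the neutrophil replicates correlated at 0.875, below the highest correlation between groups (0.885). The G-MDSC replicates correlated at 0.953.

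Csf1, the macrophage factor, was read by 4 probe sets in 2 ranges of signal. The brightest, 1460220_a_at, had 5963 and 11200.2 in the G-MDSC arrays, against 5496 and 4861 in the neutrophil arrays. Both G-MDSC arrays were above both neutrophil arrays, with G-MDSC replicate 2 the highest. The log2 difference was 0.66 ± 0.36 (limma adjusted p = 0.320, 95% interval -0.16 to 1.48), 1.11 without G-MDSC replicate 1 and 0.21 without G-MDSC replicate 2. The second bright probe set, 1448914_a_at, had 4331 and 8333 in G-MDSC, compared with 4356 and 3092 in neutrophils, and the groups overlapped (log2 difference 0.71 ± 0.38). The dim pair disagreed in sign. Probe set 1425154_a_at had 246 and 458 in the G-MDSC arrays, against 377 and 394 in the neutrophil arrays (-0.19 ± 0.42), and 1425155_x_at had 291 and 674 in G-MDSC, compared with 495 and 300.4 in neutrophils (0.19 ± 0.48). In all 4 probe sets G-MDSC replicate 2 was above replicate 1, by 1.86 to 2.31 times, while the largest of the 4 differences between groups was 1.63-fold.

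Csf3r, the receptor of the factor that was called, was bright in every array. It had 19174 and 27611 in the G-MDSC arrays, against 14881 and 15292 in the neutrophil arrays. The G-MDSC arrays were both higher, yet the log2 difference of 0.61 ± 0.32 missed the threshold (SE, n = 2 per group; limma adjusted p = 0.301, 95% interval -0.12 to 1.33). Relative to the median of all probe sets, which was itself -0.20, it was 0.81. Leaving out G-MDSC replicate 2 reduced the difference to 0.35, and leaving out G-MDSC replicate 1 gave 0.87. A change of 2-fold in G-MDSC lies inside the interval, so these arrays do not settle whether Csf3r differed.

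Csf1r, the receptor kinase of macrophages, was measured by 3 probe sets that ran the same way. The brightest, 1419872_at, had 11012 and 11272 in G-MDSC, compared with 16081 and 17388 in neutrophils. Probe set 1419873_s_at had 4108 and 3821 in the G-MDSC arrays, against 6409 and 5999 in the neutrophil arrays. The third, 1423593_a_at, had 2456 and 2557 in G-MDSC, compared with 3466 and 3645 in neutrophils. Replicates lay close together and the groups did not overlap in any of the 3. The log2 differences were -0.59 ± 0.29, -0.64 ± 0.29 and -0.50 ± 0.29, with limma adjusted p-values of 0.278, 0.227 and 0.347, so none passed. With each array scaled to the same median the sign at 1419872_at turned (0.05). Relative to the median of all probe sets it was -0.38 as the authors scaled the arrays and -0.33 under that scaling. Macrophage markers, whose cells are known to carry this receptor, were lower in G-MDSC by the values given above, and their part in the Csf1r levels was not tested.

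**Figure D2:**
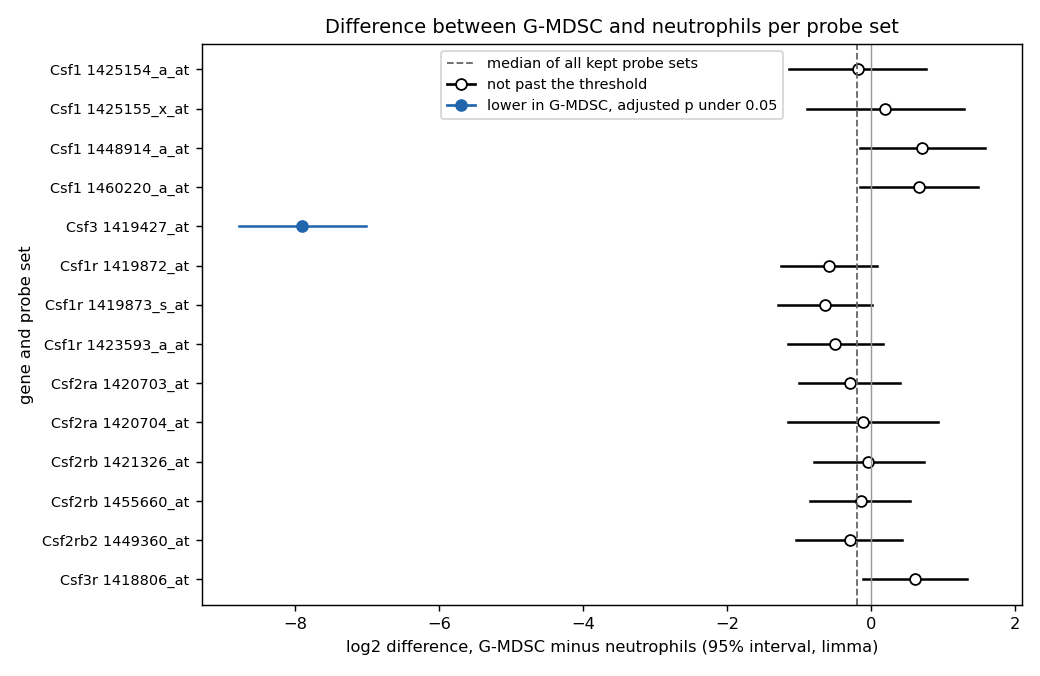
Log2 difference of G-MDSC minus neutrophils for the 14 probe sets that passed the filter, with limma's 95% interval. The filled point, Csf3 at -7.90, is the probe set past the threshold. The intervals of the other 13 hold 0, and the dashed line at -0.20 is the median of all kept probe sets.

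The chains of the GM-CSF and IL-3 receptors did not pass the test at any of their 5 probe sets. Csf2ra, the chain that binds GM-CSF, had 5003 and 6644 in the G-MDSC arrays, against 6483 and 7822 in the neutrophil arrays at its brighter probe set, 1420703_at. At 1420704_at it had 1655 and 1235 in G-MDSC, compared with 2537 and 956 in neutrophils, where the neutrophil replicates lay on both sides of the G-MDSC arrays. The log2 differences were -0.30 ± 0.31 and -0.12 ± 0.46 (limma adjusted p = 0.595 and 0.895).

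Csf2rb, the common beta chain, had 20604 and 23346 in the G-MDSC arrays, against 26950.4 and 22098 in the neutrophil arrays at 1455660_at. At 1421326_at it had 6459 and 8328 in G-MDSC, compared with 9449.5 and 6008 in neutrophils. The groups overlapped at both, with log2 differences of -0.15 ± 0.31 and -0.04 ± 0.34. Csf2rb2, the IL-3 chain, had 3788 and 5636 in the G-MDSC arrays, against 6266 and 5189 in the neutrophil arrays, and the groups overlapped (-0.30 ± 0.32, limma adjusted p = 0.613, 95% interval -1.04 to 0.43). The paralogues Csf2rb and Csf2rb2 are similar in sequence, and hybridisation of one to the probes of the other was not tested. One probe set is annotated to both genes and is no member. It had 2836 and 2508 in G-MDSC, compared with 3527 and 2094 in neutrophils (log2 difference -0.03 ± 0.34). For the brightest probe sets of Csf2ra, Csf2rb and Csf2rb2 the 95% intervals ran from -1.01 to 0.40, from -0.85 to 0.54 and from -1.04 to 0.43.

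**Figure D3:**
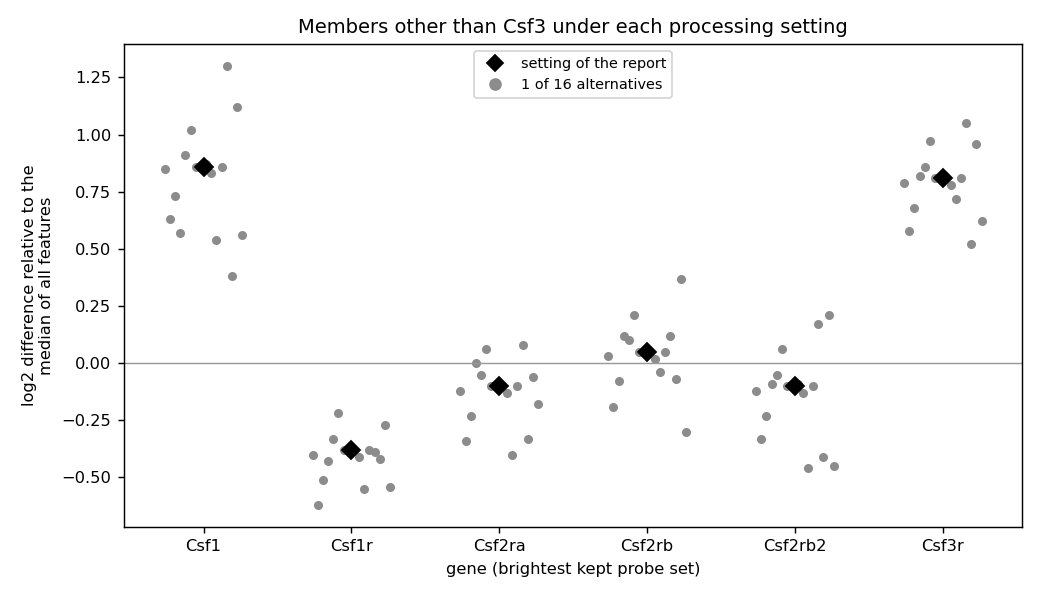
Log2 difference of G-MDSC minus neutrophils relative to the median of all features, for the brightest probe set of each tested member other than Csf3. Diamonds give the setting used in the report and grey dots the 16 alternatives. Csf1 and Csf3r lie above 0 and Csf1r below 0 in all of them, and the 3 chains of the GM-CSF and IL-3 receptors lie on both sides of 0.

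By Euclidean distance between log2 profiles centred over the 4 arrays, the named probe sets nearest to Csf3 were those of Msr1, a macrophage scavenger receptor, and Ccl12, a chemokine. Msr1 at this probe set had 2.64 and 14.0 in the G-MDSC arrays, against 3823 and 5239 in the neutrophil arrays. Csf3, Msr1 and Ccl12 all lay under the 40th percentile in G-MDSC, where signals have no order, so the distances among them are not given. For the other members, 529 probe sets of other genes lay within 0.5 of Csf1 and 2899 within 0.5 of Csf2ra. The nearest to Csf1 were Klf3 and Zfp53, to Csf1r Wsb2 and Zfp444, and to Csf3r Ppm1a and Relch. Those nearest to Csf2ra were Wdfy3 and Tead3, to Csf2rb Lims1 and Tbkbp1, and to Csf2rb2 Rps24 and Abhd1. Rps24 at this probe set had 37.1 in G-MDSC replicate 1 and 55.8 in neutrophils replicate 2. Both lie under the 40th percentile of their array, so its place near Csf2rb2 rests partly on signals without order. With 4 arrays a small distance to a member that hardly varied has many matches and is given as a description.

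Growth factors and receptors related to the members were dim or did not pass the test. Of 13 such genes, 9 had a probe set and 6 were tested, with 0 called by limma and 1, Kit, at an unadjusted p under 0.05. Kit, the receptor of stem cell factor, had 2003 and 3146 in G-MDSC, compared with 1551 and 417 in neutrophils (log2 difference 1.62 ± 0.56, limma adjusted p = 0.121), and passed when G-MDSC replicate 1 (adjusted p = 0.0160) or neutrophils replicate 1 (0.00149) was left out, whereas its difference was 0.69 (adjusted p = 0.299) without neutrophils replicate 2. Il3ra, the chain that binds IL-3, had 251 and 200.4 in the G-MDSC arrays, against 482 and 329 in the neutrophil arrays (-0.79 ± 0.41). Il3, Il5 and Il34, the ligands of the beta chain family and the second ligand of Csf1r, lay under the 40th percentile of all 4 arrays.

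The feedback inhibitors of cytokine receptors held several falls. Beside the counts of each list around the receptors, 5.62% of all 13139 genes were called lower in G-MDSC and 5.22% higher. Of 15 inhibitors tested, 4 were lower in G-MDSC (Cish, Socs2, Socs3 and Dok2), 0 were higher and 11 did not pass. The list median was 0.01, beside -0.19 over all genes. Among the 17 genes called on these and the following lists, Cish, Tnf and Il6 were still called without the intensity trend, and the same 3 with Socs2, Il1a and Zfp36l2 under median scaling. Cish, which STAT5 induces and which restrains it, had 429.9 and 323 in G-MDSC, compared with 8052 and 4953 in neutrophils. The groups were far apart, with a log2 difference of -4.03 ± 0.36 (SE, n = 2 per group; limma adjusted p = 0.000660). Socs2, of the same family, had 100.5 and 159 in the G-MDSC arrays, against 1393 and 1010.4 in the neutrophil arrays (-3.07 ± 0.40, adjusted p = 0.00349), or -2.03 with the median of its probe sets, and its call was lost without the intensity trend (0.0539). Socs3, the inhibitor of Csf3r signalling, had 8017 and 10033 in G-MDSC, compared with 18179 and 23838 in neutrophils. Its difference of -1.21 ± 0.31 barely passed (adjusted p = 0.0498), and the call was lost without G-MDSC replicate 1 (0.471), G-MDSC replicate 2 (0.189) or neutrophils replicate 2 (0.0548). Socs1 had 96.6 and 167 in the G-MDSC arrays, against 234 and 65.4 in the neutrophil arrays, with overlapping groups.

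**Figure D4:**
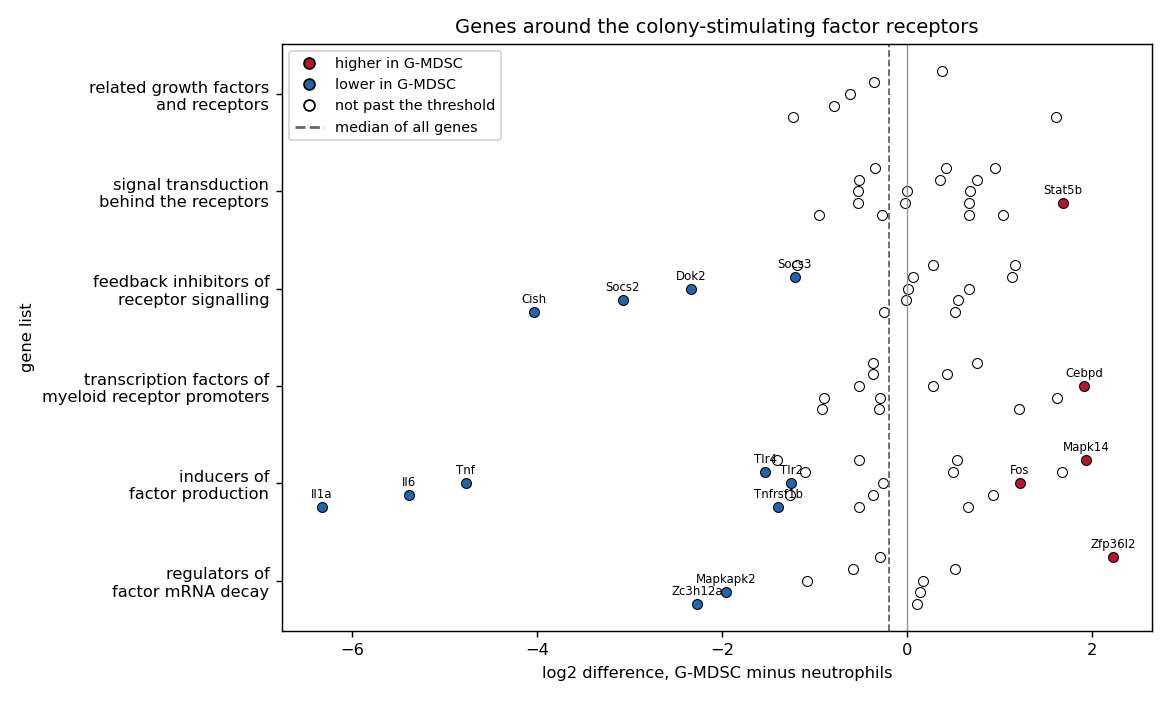
Log2 difference of G-MDSC minus neutrophils for each tested gene of 6 lists around the receptors, at its brightest kept probe set. Red points were higher and blue points lower in G-MDSC at an adjusted p under 0.05, open points did not pass, and the dashed line is the median of all genes. Il1a, Il6, Tnf and Cish lie farthest to the left.

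Genes that carry the receptor signal held a single call. Of 17 tested, 1 was higher and 0 lower in G-MDSC, with a list median of 0.36. Over all genes 5.22% were called higher and 5.62% lower, so this count says nothing particular about the list. The exception was Stat5b, a transcription factor downstream of GM-CSF and IL-3, with 2902 and 2678 in G-MDSC, compared with 919 and 793 in neutrophils (log2 difference 1.69 ± 0.31, limma adjusted p = 0.0136). It no longer passed with G-MDSC replicate 1 left out (adjusted p = 0.0702) and with the median of its probe sets, which gave 0.79. Stat5a had 432 and 408 in the G-MDSC arrays, against 731 and 513 in the neutrophil arrays, and did not pass (-0.53 ± 0.37). Jak2, the kinase bound to the beta chain and to Csf3r, had 2606 and 2539 in G-MDSC, compared with 5644 and 4394 in neutrophils (-0.95 ± 0.30, adjusted p = 0.0956).

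Transcription factors known from the promoters of myeloid receptors had a list median of -0.29. Beside 5.22% of all genes called higher and 5.62% lower, 1 of the 13 tested was higher in G-MDSC and 0 lower. This was Cebpd, with 9787 and 10146 in the G-MDSC arrays, against 3532 and 1945 in the neutrophil arrays (log2 difference 1.92 ± 0.35, limma adjusted p = 0.0141), or 0.94 with the median of its probe sets, where the call was lost (0.108). It was also lost with median scaling (0.0805) and without the intensity trend (0.113). Spi1, which encodes PU.1, had 14796 and 18830.3 in G-MDSC, compared with 10133 and 9515 in neutrophils, and the difference did not pass (0.76 ± 0.30, adjusted p = 0.172).

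Signals known to induce the factors were lower in G-MDSC in part. Of 20 tested inducers and their pathway genes, 6 were lower, 2 higher and 12 did not pass, with a list median of -0.52. Over all genes 5.62% were called lower and 5.22% higher. The part of these inducers in the Csf3 difference was not tested. Il1a, an interleukin 1 cytokine, had 50.1 and 249.9 in the G-MDSC arrays, against 5163 and 21982 in the neutrophil arrays (log2 difference -6.33 ± 0.75, limma adjusted p = 0.00231). Il6, a cytokine of the acute phase, had 303 and 410.2 in G-MDSC, compared with 10131 and 23249 in neutrophils (-5.38 ± 0.42, adjusted p = 0.000419). Every neutrophil array was above every G-MDSC array for both, as for Tnf, which had 427 and 1177 in the G-MDSC arrays, against 15967 and 24506 in the neutrophil arrays (-4.77 ± 0.47, adjusted p = 0.000992). The other falls, Tnfrsf1b, Tlr2 and Tlr4, were smaller, and without G-MDSC replicate 1 the number of lower genes was 3. Il1b had 26516 and 35685 in G-MDSC, compared with 34836 and 56214 in neutrophils, and overlapped between the groups. Mapk14, the p38 kinase, was higher by 1.94 ± 0.30, but by 0.14 when its probe sets were summarised by their median (adjusted p = 0.850). Fos, an AP-1 subunit, was higher by 1.22 ± 0.30, which no longer passed when G-MDSC replicate 1 (adjusted p = 0.240) or 2 (0.375) was left out.

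The mRNAs of the factors are short-lived in many cells, and proteins that set their decay were read too. Of 10 tested, 1 was higher and 2 lower in G-MDSC, beside 5.22% and 5.62% of all genes, with a list median of -0.09. Their part in the levels of the factors was not tested. Zfp36l2, a protein that binds AU-rich elements, had 18998 and 23286 in the G-MDSC arrays, against 4506 and 4409 in the neutrophil arrays (log2 difference 2.23 ± 0.30, limma adjusted p = 0.00372), or 0.73 with the median of its probe sets, where the call was lost (0.353). Zc3h12a, the RNase Regnase-1, had 960.0 and 989.9 in G-MDSC, compared with 5332 and 4263 in neutrophils (-2.27 ± 0.30, adjusted p = 0.00390). Mapkapk2, a kinase that acts on Zfp36, had 2649 and 3050.1 in the G-MDSC arrays, against 11779.7 and 10304 in the neutrophil arrays (-1.95 ± 0.29, adjusted p = 0.00663). With median scaling the calls of Zc3h12a (-1.64) and Mapkapk2 (-1.31) were lost, while that of Zfp36l2 held (2.87, limma adjusted p = 0.0145). Zfp36, the best known of these decay factors, had 17957 and 21082 in G-MDSC, compared with 22664 and 25125 in neutrophils, and did not pass (-0.29 ± 0.30).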

How the data were processed

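Signal intensities were measured in 4 samples, 1 Affymetrix array each. Per the submitters' processing notes, GCOS 1.4 and MAS5 gave the intensity values that the authors deposited. The arrays share a mean of 500 once the top and bottom 2% of values are dropped. The platform annotation gives 1 symbol to 34945 probe sets, several to 932 and none to 9160, with 64 controls left out. Gene IDs of 34741 probe sets matched RefSeq (GRCm38.p6), used for names and promoter sequences. Detection calls were not used here.

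Signals were taken as log2(signal + 16), so folds of dim genes are understated. Probe sets above the 40th percentile of their array in at least 2 of 4 arrays were kept, 28754 in all and 14 of the 15 member probe sets. They were fitted together with limma 3.58.1 in R 4.3.3 (lmFit, eBayes with an intensity trend, two-sided, Benjamini-Hochberg over all kept probe sets, threshold 0.05). An earlier treatment of the same data had used 1 probe set per gene, which here was an alternative. A gene was read at the brightest of its kept probe sets, by mean signal. An exact permutation test cannot reach the threshold with 2 against 2 arrays and was not used. The functions were tested on simulated data. Tables and plots used Python 3.11.15, pandas 2.3.3, numpy 2.4.6 and matplotlib 3.10.9.

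The members and lists were chosen with earlier results of these data known. Named genes were all members, up to 2 called genes per direction of each list with the largest differences or else its 2 brightest, and the 2 nearest profiles per member. Other genes named beside them (Socs1, Socs3, Stat5a, Jak2, Spi1, Il1b, Zfp36 and the remaining called list members) and the markers were chosen after their values were seen. The number of arrays limits the precision.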

Additional observations from a re-analysis of the deposited data

How the results depend on the processing

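Each result was recomputed under 16 alternatives. Csf3 was the only member called lower under 14 of them, and 0 members were called under the floor for low signals and without moderation. No member was called higher under any. The sign of every tested member held except with median scaling, where Csf1r was at 0.05, Csf2ra at 0.33, Csf2rb at 0.48 and Csf2rb2 at 0.33, and with quantile normalization, where Csf2rb was at 0.02. The median of all probe sets was 0.39 with median scaling and -0.20 as deposited, and 62.9% of calls were then higher in G-MDSC, against 46.4% as scaled by the authors. Of all probe sets 1071 were called higher and 1238 lower. The counts were 0 and 0 with the floor and without moderation, 683 and 403 with median scaling, 41 and 185 without the intensity trend, and 620 and 785 with quantile normalization. Leaving out 1 array gave from 470 to 3302 higher and from 791 to 4591 lower. With the replicate number as a block they were 2799 and 2753; the labels do not say that a number marks a shared mouse or day, and same-numbered samples' deviations correlated at 0.296. Under this replicate block Csf3 was again the 1 member called. Of the 17 genes called on the 6 pathway lists, 6 were still called with median scaling (Cish, Socs2, Il1a, Tnf, Il6 and Zfp36l2), 3 without the intensity trend (Cish, Tnf and Il6), 11 without G-MDSC replicate 1 and 0 with the floor or without moderation. Macrophage markers called lower numbered 11 as reported, 6 with quantile normalization, from 8 to 12 with 1 array left out, and 0 with the floor or without moderation. For Kit the replicate block gave an adjusted p of 2.13e-05. The cause of these shifts was not tested. Signals under the 40th percentile, as for Csf2 in 3 arrays and Csf3 in G-MDSC, give bounds only.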
